A study of Mus musculus with 4 samples.

Results

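Retinoid synthesis, binding and response genes are described here through 9 genes of vitamin A handling: Stra6, Rbp4, Aldh1a1, Aldh1a2, Aldh1a3, Aldh1a7, Crabp1, Crabp2 and Rarb. Every probe set whose only platform gene symbol was one of these names was taken, which gave 11 probe sets among the 45037 on the array that are not controls. The platform annotation names 18193 genes with such single-symbol probe sets. Mesothelial cells, which form the outer sheet of an organ, and the submesothelial cells below them came from dissected livers of embryonic day 17.5 mice of the C57BL/6 strain. There were 2 samples from p57-/- embryos, which lack the cyclin-dependent kinase inhibitor encoded by Cdkn1c and are labelled Kip2 -/-, and 2 from p57+/+ embryos, labelled wild type. The titles place 1 sample of each genotype in experiment 1 and 1 in experiment 2, and 1 Affymetrix array of a single colour was hybridised with each sample. The labels do not say whether a sample was 1 embryo or a pool, so the spread behind the p-values is that of 4 samples and can include technical variation.

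Retinol is secreted into blood by the liver on the carrier protein RBP4, and cells with the membrane receptor STRA6 take it up. Inside a cell retinol is oxidized to retinal, and the retinal dehydrogenases of the ALDH1A family oxidize retinal to retinoic acid, the ligand of the nuclear receptors RAR and RXR. In the mouse embryo Aldh1a2 is the main enzyme gene of this kind in mesothelium, and hepatic stellate cells, which descend in part from mesothelium, store retinyl esters made by LRAT.

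The regions before the start sites of 3 members are shown, Aldh1a1 and Aldh1a7 because these neighbouring genes had the 2 lowest ratios of p57-/- to p57+/+ signal among the detected members, and Rarb because it is a textbook target of retinoic acid. Each is the 250 bases before a RefSeq start in GRCm38.p6, and RefSeq windows were found for 7 of the 9 members. For Aldh1a1, at chr19:20601718-20601967 on the plus strand, and Aldh1a7, at chr19:20727557-20727806 on the minus strand, capitals mark the longest run of letters that both windows hold. For Rarb, at chr14:16575477-16575726 on the minus strand, capitals mark a direct repeat of GTTCA with 6 bases between its copies. With the base before each copy the repeats read GGTTCA and AGTTCA with CCGAA between them, of the kind bound by retinoic acid receptors.
Aldh1a1: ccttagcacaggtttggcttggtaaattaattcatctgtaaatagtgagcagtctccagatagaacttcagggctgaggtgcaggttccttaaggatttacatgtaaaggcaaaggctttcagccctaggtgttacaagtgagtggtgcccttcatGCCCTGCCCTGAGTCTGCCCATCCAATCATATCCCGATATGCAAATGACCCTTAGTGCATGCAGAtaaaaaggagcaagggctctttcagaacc
Aldh1a7: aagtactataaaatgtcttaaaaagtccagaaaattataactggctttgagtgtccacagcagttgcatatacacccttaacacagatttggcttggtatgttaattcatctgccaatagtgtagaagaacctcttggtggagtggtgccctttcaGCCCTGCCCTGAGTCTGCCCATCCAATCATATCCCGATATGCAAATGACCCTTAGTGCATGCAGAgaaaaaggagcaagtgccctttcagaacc
Rarb: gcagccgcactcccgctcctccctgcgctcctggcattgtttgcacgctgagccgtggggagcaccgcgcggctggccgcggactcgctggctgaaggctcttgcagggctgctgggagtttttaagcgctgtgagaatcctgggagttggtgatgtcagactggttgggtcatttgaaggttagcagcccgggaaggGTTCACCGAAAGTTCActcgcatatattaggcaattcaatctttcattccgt

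The shared run of Aldh1a1 and Aldh1a7 was 65 bases long and lay 94 to 30 bases before the start in both. Aldh1a1 had another RefSeq window, not shown, whose longest run shared with the Aldh1a7 window was 8 bases. An alignment of the windows had 176 identical columns of 268 (65.7%). Between windows of any other pair of members the longest shared run was 6 to 11 bases. In RefSeq gene order both genes lie on chromosome 19 with 3 annotated genes between them, 0 of which code for protein. The octamer ATGCAAAT, the binding motif of POU factors, was searched on both strands after the sequences were seen. It occurred in the windows of Aldh1a1 (only the one shown), Aldh1a7 and Aldh1a2 and in 1.60% of all 32851 windows. In Aldh1a1 and Aldh1a7 the octamer lay inside the shared run, 56 to 49 bases before the start, so these are not separate occurrences. The CCAAT motif occurred in 33.8% of windows. The direct repeat in the Rarb window lay 52 to 37 bases before the start, and 22 of the 32851 windows (0.0670%) held it on either strand. These matches describe letters and show no binding.

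The arrays had 48.5% to 50.1% of probe sets called Present, the detection call of the MAS5 software, and lowest Present signals of 12.4 to 15.4. Cdkn1c, the deleted gene, gave 7.79 and 7.28 in p57-/-, Absent on both arrays, against 10255 and 9866 in p57+/+. It fell by a factor of at least 760 in p57-/- (limma adjusted p = 1.80e-08). Both p57-/- arrays had Xist, the RNA of the inactive X chromosome, with signals of 7889 and 6412, and the Y-linked Eif2s3y with 966 and 904. The p57+/+ arrays had Xist at 12199 in replicate 1 and 86.7 in replicate 2, and Eif2s3y at 2.56 and 1734, so these sex-linked RNAs differed between the 2 p57+/+ samples. Both RNAs on the same p57-/- array mean that a sample may hold more than 1 embryo, in which case n counts pools and the SD is that between pools. The part of sex in the differences below was not tested. The mesothelial marker genes Upk3b and Msln were Present on all 4 arrays, as was the stellate cell marker Reln. Des, another stellate cell marker, was Absent on all 4 arrays with each of its probe sets.

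Marker lists of other cells give the makeup of the samples. Summed signals of 15 detected stellate and mesenchymal genes were 93340 to 101535 in p57-/- and 79491 to 89478 in p57+/+, with 7 genes higher and 3 lower without overlap of the genotypes. Those of 16 mesothelial genes were 26611 to 30488 in p57-/- and 24992 to 30499 in p57+/+, with 6 higher and 3 lower. Those of 11 hepatocyte genes were 436251 to 449484 in p57-/- and 392201 to 485962 in p57+/+, with 1 higher and 1 lower. The 1 higher was Hnf4a, at a log2 change, p57-/- minus p57+/+, of 0.13 (SE 0.12). The 1 lower was Cyp2e1, at -0.55 (SE 0.21). Much of the hepatocyte sum came from genes among the brightest on the arrays, such as Alb and Apoa1. The 9 detected erythroid genes summed to 68709 to 91232 in p57-/- and 101007 to 107633 in p57+/+, with 0 higher and 8 lower. The 8 granulocyte genes summed to 210385 to 218318 in p57-/- and 195597 to 198230 in p57+/+, with 5 higher. Over all detected genes 21.7% were higher and 19.0% lower in this way. The shares were 46.7% and 20.0% for stellate and mesenchymal genes, 37.5% and 18.8% for mesothelial and 9.09% and 9.09% for hepatocyte genes. They were 0% and 88.9% for erythroid and 62.5% and 0% for granulocyte genes. Thus the stellate and mesothelial shares lower were near the background, while their shares higher, 46.7% and 37.5%, were above its 21.7%. The erythroid share lower and the granulocyte share higher were also above the background. Sums of macrophage, endothelial and bile duct genes overlapped between the genotypes. Of 8 genes of adrenal, gonad, gut and lung neighbours, 2 were detected, 1 higher and 1 lower without overlap. Vil1 gave 81.5 and 104 in p57-/-, against 18.0 and 54.0 in p57+/+, both Absent. It met the detection rule only through the p57-/- arrays. Fabp2 gave 181 and 174 in p57-/-, against 279 and 329 in p57+/+. The part of cell makeup in the differences below was not tested. In such mixed samples fewer cells of a type and less RNA per cell cannot be told apart.

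Of the 9 genes, 5 were detected, meaning Present on at least 2 of the 4 arrays, each with 1 probe set: Rbp4, Aldh1a1, Aldh1a2, Aldh1a7 and Rarb. The other 4, Stra6, Aldh1a3, Crabp1 and Crabp2, were called Present on 0 arrays with any of their 6 probe sets. No member passed the threshold, with 0 of 5 higher and 0 of 5 lower by limma at an adjusted p of 0.05, beside 0.00439% of all 22800 probe sets tested. At an unadjusted p under 0.05, 0 were higher and 1, Aldh1a7, was lower, beside 3.93% higher and 3.75% lower of all probe sets. The 2 arrays of p57-/- lay below both p57+/+ arrays for 2 of the 5, Aldh1a7 and Aldh1a1, and above them for 0. Over all probe sets tested 18.8% lay lower in this way and 19.8% higher, 38.6% in all. Over the 11656 detected genes, each by its brightest probe set, 19.0% lay lower and 21.7% higher, 40.7% in all. With 2 arrays a genotype an exact permutation test could not give a p below 0.333.

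**Figure D1:**
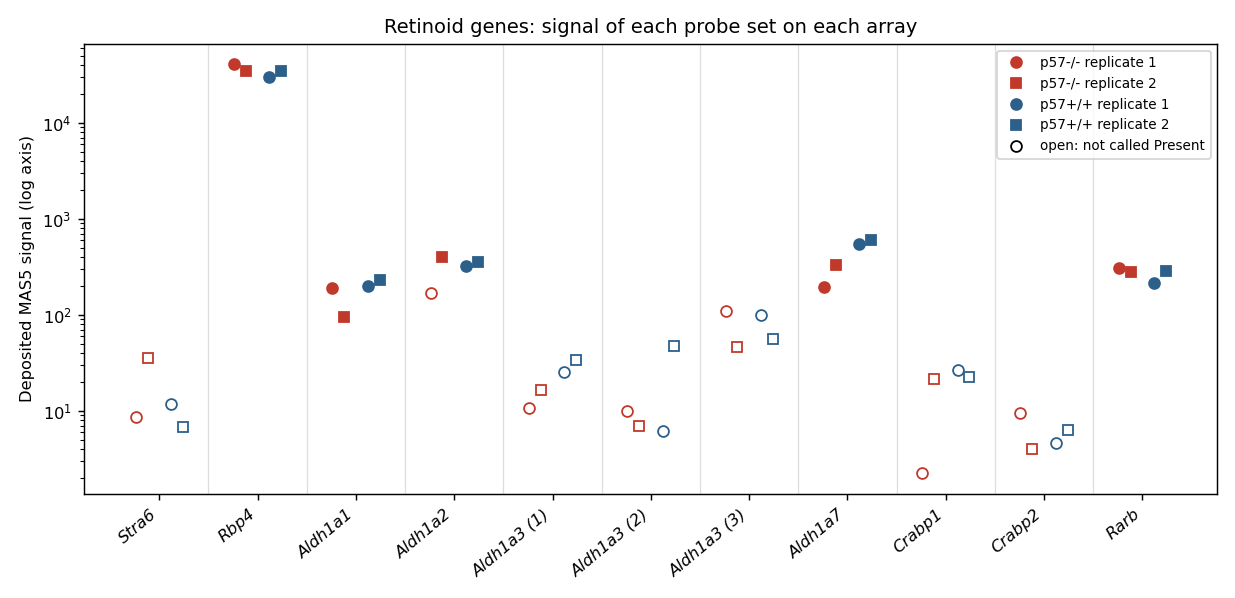
Deposited MAS5 signal of each of the 11 probe sets of the 9 genes (log axis) on the 2 p57-/- arrays (red) and the 2 p57+/+ arrays (blue), with open symbols where the array did not call the probe set Present; numbers in brackets tell the 3 probe sets of Aldh1a3 apart. For Aldh1a7 the p57-/- arrays, at 198 and 336, lie below the p57+/+ arrays, at 546 and 600.

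The carrier gene Rbp4, which encodes the plasma retinol-binding protein made by hepatocytes, did not differ between the genotypes beyond the spread of the arrays. It gave 40862 and 34536 in p57-/-, against 30477 and 35067 in p57+/+. The p57-/- replicate 1 array was the highest and the p57+/+ replicate 1 array the lowest, and the genotypes overlapped. The log2 change, p57-/- minus p57+/+, was 0.20 (SE 0.12, 95% interval -0.08 to 0.48, limma adjusted p = 0.718). It was 0.42 in experiment 1 and -0.02 in experiment 2. The receptor gene Stra6 gave 8.73 and 35.9 in p57-/-, against 11.9 and 6.80 in p57+/+, all called Absent with detection p-values of 0.568 to 0.932, so no difference was measured.

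Among the genes of the ALDH1A family, Aldh1a7 had the largest difference of the detected members. Its product is a rodent relative of ALDH1A1, and whether it oxidizes retinal was not tested. Aldh1a7 gave 198 and 336 in p57-/-, against 546 and 600 in p57+/+. Both p57-/- arrays were lower than both p57+/+ arrays, and replicate 1 was the lower of the p57-/- arrays. The means were 267 ± 97.3 in p57-/- and 573 ± 37.8 in p57+/+ (SD, n = 2 each). The log2 change was -1.15 (SE 0.25, 95% interval without adjustment -1.72 to -0.58), a p57-/- to p57+/+ ratio of 0.451. It did not pass over all probe sets (limma adjusted p = 0.519). Both experiments had it lower, by -1.46 on the log2 scale in experiment 1 and -0.84 in experiment 2. With the experiment number as a block the change was the same and passed narrowly (limma adjusted p = 0.0496), in a fit that called 30 probe sets in all. Without p57-/- replicate 1 the log2 change was -0.77 (limma adjusted p = 0.483), and without p57-/- replicate 2 it was -1.53 (limma adjusted p = 0.0130). Each of these sets a single p57-/- array against p57+/+ and assumes that it varies like the p57+/+ arrays. Without p57-/- replicate 2, 221 probe sets were called in place of 1, so that value is not separate evidence for Aldh1a7.

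Aldh1a1 encodes a retinal dehydrogenase that also clears excess retinol in the mouse. It gave 193 and 96.2 in p57-/-, against 199.957 and 229 in p57+/+. The p57-/- replicate 2 array was the lowest, while p57-/- replicate 1 lay just under the p57+/+ arrays. The log2 change was -0.65 (SE 0.34, 95% interval -1.41 to 0.11, limma adjusted p = 0.678), with -0.05 in experiment 1 and -1.25 in experiment 2. Thus Aldh1a7 and Aldh1a1 were both lower in p57-/- without overlap, but the lowest array was p57-/- replicate 1 for Aldh1a7 and p57-/- replicate 2 for Aldh1a1. Without p57-/- replicate 2 the Aldh1a1 change was -0.15 and without p57-/- replicate 1 it was -1.15. The genes are close paralogs, and whether the probe sets cross-hybridize was not tested. The part of hepatocyte content in the Aldh1a1 and Aldh1a7 signals was not tested.

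Aldh1a2 showed 1 array apart from the other 3. It gave 171, called Marginal, and 401 in p57-/-, against 325 and 355 in p57+/+. The 2 p57-/- arrays lay on either side of the p57+/+ arrays. The log2 change was -0.38 (SE 0.35, 95% interval -1.16 to 0.40, limma adjusted p = 0.811), with -0.93 in experiment 1 and 0.18 in experiment 2. Without p57-/- replicate 1 it turned to 0.24 (limma adjusted p = 0.951). Wt1, a mesothelial transcription factor gene with the largest positive change of that marker list, gave 454 and 363 in p57-/-, against 255 and 266 in p57+/+, so both p57-/- arrays were higher. The Wt1 log2 change was 0.64 (SE 0.21, limma adjusted p = 0.553). Other mesothelial genes went the other way, among them Muc16, a mucin gene, at -0.56 (SE 0.25, limma adjusted p = 0.642) and Krt18, a keratin gene, at -0.24 (SE 0.13, limma adjusted p = 0.684). The 16 mesothelial genes summed to 26611 and 30488 in p57-/-, against 24992 and 30499 in p57+/+, so both arrays of experiment 1 were lower than both of experiment 2. The part of mesothelial content in the Aldh1a2 signals was not tested. The third enzyme of the family, Aldh1a3, had 3 probe sets, all Absent on all 4 arrays. Their signals were 7.03 to 110 in p57-/- and 6.24 to 99.9 in p57+/+, so no difference was measured.

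The genes of the intracellular retinoic acid carriers were not detected. Crabp1, whose product is linked to retinoic acid turnover, gave 2.24 (Absent) and 21.3 (Marginal) in p57-/-, against 26.5 (Marginal) and 22.8 (Absent) in p57+/+. Crabp2, whose product hands retinoic acid to its receptor, gave 9.52 and 4.04 in p57-/-, against 4.64 and 6.27 in p57+/+, all Absent and all under the lowest Present signal of their array. No fold is given for either.

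Rarb encodes the retinoic acid receptor beta and is itself induced by retinoic acid through the repeat of GGTTCA and AGTTCA given above. It gave 311 and 277 in p57-/-, against 217 and 290 in p57+/+, Present on all 4 arrays. The p57+/+ replicate 1 array was the lowest, and the genotypes overlapped. The log2 change was 0.23 (SE 0.23, 95% interval -0.29 to 0.74, limma adjusted p = 0.831), with 0.52 in experiment 1 and -0.06 in experiment 2. The interval reaches from a slightly lower to a clearly higher Rarb signal, so the arrays do not show that its level was equal.

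**Figure D2:**
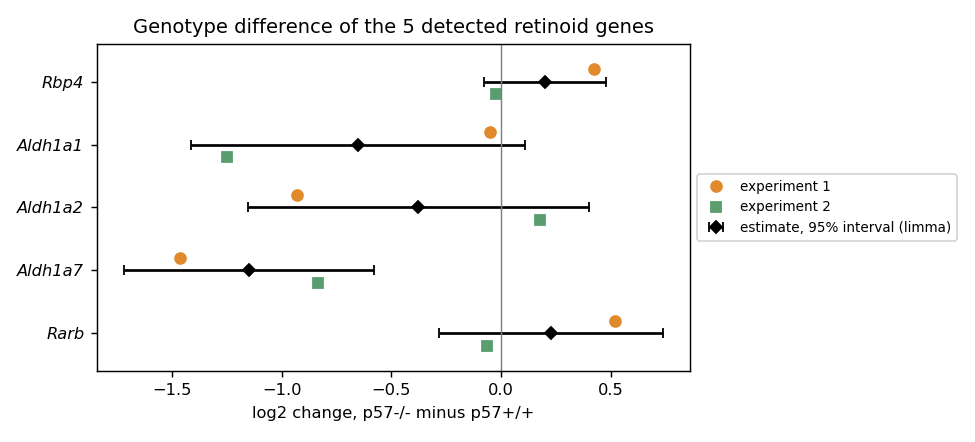
Log2 change, p57-/- minus p57+/+, of the 5 detected members, with the limma estimate and its unadjusted 95% interval (black) and the value within experiment 1 (orange) and experiment 2 (green). Aldh1a7 is the only one whose interval, -1.72 to -0.58, leaves out 0, and Rbp4, Aldh1a2 and Rarb have experiments on opposite sides of 0.

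The other genes of retinoid handling gave no call. Of 85 listed genes, 75 had a single-symbol probe set and 51 were detected, and each was represented by its brightest detected probe set. By limma at an adjusted p of 0.05, 0 were higher and 0 lower, beside 0.00858% of all 11656 genes. At an unadjusted p under 0.05, 5 were higher and 4 lower, beside 4.70% higher and 4.07% lower of all genes. Without overlap of the genotypes, 12 (23.5%) were higher and 10 (19.6%) lower, close to the 21.7% and 19.0% of all genes. The 21.7% and 19.0% are also the background for the counts of the smaller lists below, which were not tested as sets. The median log2 change of the 51 genes was 0.10, beside 0.02 over all genes, and was 0.19 in experiment 1 and -0.0088 in experiment 2. The list shares Lrat and Ttr with the stellate and hepatocyte marker lists.

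In retinol transport and uptake, 0 of 7 detected genes were higher without overlap and 1 lower. That gene, Stra6l, encodes an RBP4 receptor of mouse liver. It gave 385 and 376 in p57-/-, against 513 and 612 in p57+/+, so both p57-/- arrays were lower. The log2 change was -0.56 (SE 0.18, limma adjusted p = 0.557). Ttr, whose product carries RBP4 in plasma, was the brightest of the group, with 64750 and 64745 in p57-/-, against 56858 and 74260 in p57+/+. Its other probe sets were at -0.14 (SE 0.10), -0.12 (SE 0.12) and 0.02 (SE 0.13), the first of them lower without overlap.

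In storage and ester turnover, 2 of 6 detected genes were higher without overlap and 1 lower. Lrat, which encodes the enzyme that makes retinyl esters, gave 1153 and 970 in p57-/-, against 809 and 871 in p57+/+. This was a log2 change of 0.33 (SE 0.16, limma adjusted p = 0.653), while a dimmer Lrat probe set was at -0.23 (SE 0.30). Dgat1, which encodes an acyltransferase that can esterify retinol, was at 0.14 (SE 0.15). Ces1d, a liver carboxylesterase gene, gave 1014 and 1602 in p57-/-, against 2819 and 1999 in p57+/+. Its log2 change was -0.90 (SE 0.23, limma adjusted p = 0.533), and its other probe sets were at -0.96 (SE 0.28) and -1.01 (SE 0.14, limma adjusted p = 0.292), so all 3 were lower without overlap. Leaving out p57-/- replicate 2 gave a Ces1d change of -1.23 (limma adjusted p = 0.0182), on 1 p57-/- array with the spread of the p57+/+ arrays and among 221 calls. The mouse genome has several closely related Ces1 genes, so these signals may be shared among them. Lpcat1, a lysophospholipid acyltransferase gene, was the brightest, at -0.37 (SE 0.19), and its other detected probe sets were at -0.38 (SE 0.16) and -0.68 (SE 0.19).

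Among 14 detected genes that interconvert retinol and retinal, 4 were higher and 4 lower without overlap. Dhrs3, which encodes a retinal reductase and is induced by retinoic acid, gave 1686 and 1534 in p57-/-, against 1274 and 1273 in p57+/+. Its log2 change was 0.34 (SE 0.14, limma adjusted p = 0.631). Bco1, which encodes the enzyme that cleaves carotene to retinal, was at -0.52 (SE 0.23, limma adjusted p = 0.642). Rdh7, a retinol dehydrogenase gene of liver, gave 5514 and 5043 in p57-/-, against 6213 and 8850 in p57+/+, and its log2 change was -0.49 (SE 0.16, limma adjusted p = 0.563). Adh1, the alcohol dehydrogenase gene that was brightest here, was at 0.14 (SE 0.10). Among 3 other genes that oxidize retinal or retinol, none separated the genotypes, and Aldh8a1, whose product prefers 9-cis retinal, was at 0.10 (SE 0.13). The breakdown genes Cyp26a1 and Cyp26b1, which retinoic acid induces in many tissues, were Absent on all 4 arrays. Cyp26a1 gave 5.03 and 2.98 in p57-/-, against 6.34 and 3.67 in p57+/+, all under the lowest Present signals.

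Of 8 detected genes of receptors and cofactors, 3 were higher and 1 lower without overlap. Ncoa2, a nuclear receptor coactivator gene, gave 2658 and 2284 in p57-/-, against 1972 and 1820 in p57+/+, and its log2 change was 0.38 (SE 0.14, limma adjusted p = 0.580). A dimmer Ncoa2 probe set was at -0.25 (SE 0.23), so the probe sets disagreed. Nrip1, a corepressor gene, was at -0.28 (SE 0.17), and its other 4 detected probe sets were at -0.58 (SE 0.25), -0.57 (SE 0.46), -0.11 (SE 0.18) and 0.79 (SE 0.48). Ppard, a nuclear receptor gene, was at 0.22 (SE 0.27), and Fabp5, whose product can carry retinoic acid to that receptor, was at 0.08 (SE 0.11). Rara and Rarg, the other RAR genes, were Absent on all 4 arrays.

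Of 13 detected genes of the retinoic acid response list, 3 were higher and 3 lower without overlap. Zbtb16, a zinc finger transcription factor gene, gave 513 and 324 in p57-/-, against 256 and 291 in p57+/+, and its log2 change was 0.58 (SE 0.25, limma adjusted p = 0.640), and a second probe set was at 0.70 (SE 0.29). Hoxb2, a homeobox gene, gave 427 and 466 in p57-/-, against 279 and 321 in p57+/+, where it was Absent on both arrays. Its log2 change was 0.58 (SE 0.19, 95% interval without adjustment 0.15 to 1.01, limma adjusted p = 0.563). Hoxb2 met the detection rule only through the p57-/- arrays, so its place among the higher genes and this interval are not separate support. The measured means differed 1.49-fold, and the p57+/+ signal was not above background. Rarres1, a gene first found through its response to retinoids, gave 226 (Absent) and 337 in p57-/-, against 361 and 446 in p57+/+. Its log2 change was -0.54 (SE 0.24, limma adjusted p = 0.642), and leaving out p57-/- replicate 1 gave -0.25, leaving out p57-/- replicate 2 -0.83. Tgm2, the transglutaminase gene induced by retinoic acid in many cells, was the brightest, with 7038 and 7560 in p57-/-, against 7039 and 7156 in p57+/+, and the genotypes overlapped. For Tgm2 the log2 change was 0.04 (SE 0.11). Its other detected probe sets were at -0.16 (SE 0.12), -0.09 (SE 0.13), -0.07 (SE 0.19) and 0.01 (SE 0.13), the first of them lower without overlap.

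**Figure D3:**
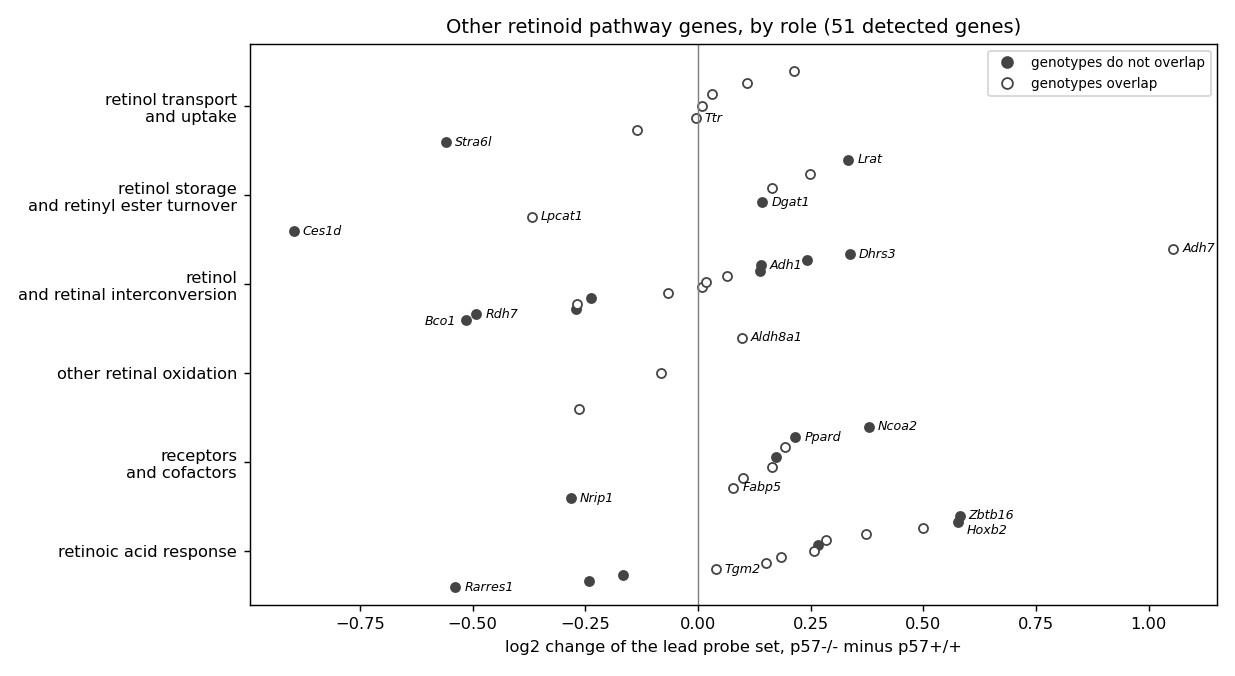
Log2 change, p57-/- minus p57+/+, of the brightest detected probe set of each of 51 other retinoid pathway genes, in rows by role; filled points have both p57-/- arrays on one side of both p57+/+ arrays, and labels mark the genes named in the text. Filled points lie on both sides of 0, 12 higher and 10 lower, and Ces1d at -0.90 is the lowest.

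The genes with the most similar pattern were sought for the 3 members whose log2 signal spanned at least 1 over the arrays. Likeness was the root mean square distance between log2 signals centred on their own mean over 4 arrays, among 10571 detected genes whose geometric mean signal reached 100. Nearest to Aldh1a7 were Glyat (0.0818), a liver glycine acyltransferase gene, and 1810008I18Rik (0.118). Both were lower on both p57-/- arrays, which follows from their choice by likeness to Aldh1a7. Glyat gave 70.0 and 125 in p57-/-, against 177 and 197 in p57+/+. Nearest to Aldh1a1 were Zfp710 (0.101), a zinc finger protein gene, and Etnppl (0.117), which encodes a phospholyase. Nearest to Aldh1a2 were Rad54l (0.0469), a recombination repair gene, and Tnfrsf13c (0.0726), which encodes a receptor of B cells. Rad54l gave 464 and 1048 in p57-/-, against 888 and 894 in p57+/+, and leaving out 1 array at a time moved its log2 change between -0.94 and 0.23. Over only 4 arrays many genes can share a pattern.

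**Figure D4:**
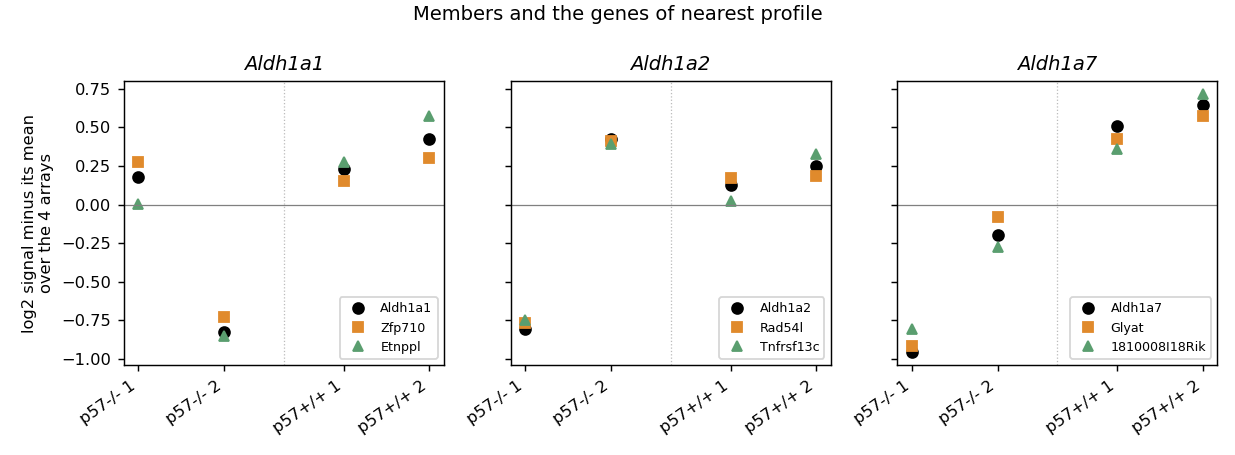
Log2 signal minus its mean over the 4 arrays, for Aldh1a1, Aldh1a2 and Aldh1a7 (black) and the 2 genes of nearest profile to each (orange and green), with the p57-/- arrays left of the dotted line and the p57+/+ arrays right of it. Aldh1a1 is lowest on p57-/- replicate 2, whereas Aldh1a2 and Aldh1a7 are lowest on p57-/- replicate 1.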

How the data were processed

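The authors deposited linear MAS5 signal intensity values for 4 arrays, per the file headers, made from 250 ng of total RNA per the labels' protocols. They also deposited a detection p-value and call per probe set, per the file headers. The submitters' processing notes name MAS5 without a version. The mean signal after trimming 2% at each end was 500.003 on every array, so a change in total RNA cannot be seen. The series matrix repeats these signals.

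Signals were log2 transformed without pseudocount. Tests left out 64 controls and took in a probe set if it was Present on at least 2 arrays (22800 probe sets, 11656 genes). The comparison of genotypes used limma 3.58.1 under R 4.3.3 (lmFit and eBayes, trended prior variance, no block, two-sided), with Benjamini-Hochberg adjustment over all probe sets tested and a threshold of 0.05; the fit was tested on simulated data. The lead probe set of a gene had the highest mean log2 signal. For the fold bound of Cdkn1c, each dim array took its lowest Present signal or that of the probe set, whichever was higher. The number of arrays limits the precision.

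Symbols came from the platform annotation, where 34945 probe sets had 1 symbol, 932 several and 9160 none; 0 changed through RefSeq of GRCm38.p6, which gave the sequences. Members and lists were chosen with earlier results of these data known. Named were all members, Cdkn1c, and, per pathway list, up to 3 genes of largest change without overlap and the brightest gene. The 2 nearest profiles of each member spanning at least 1 were named as well. Wt1, Muc16, Krt18, Upk3b, Msln, Reln, Des, Xist, Eif2s3y, Cyp26a1, Cyp26b1, Rara, Rarg and Adh7 were named after their values were seen. So were Hnf4a, Cyp2e1, Alb, Apoa1, Vil1 and Fabp2.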

Additional observations from a re-analysis of the deposited data

How the results depend on the processing

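Leaving out 1 array at a time gave 5 to 221 probe sets called (main count 1, Cdkn1c), 0 to 1 of the members and 0 to 1 of the pathway genes; the single calls, Aldh1a7 and Ces1d, came without p57-/- replicate 2, where 1 p57-/- array is assumed to vary like the p57+/+ arrays, as did that of Rad54l at -0.94 (adjusted p = 0.0439). With only probe sets Present on all 4 arrays, 0 were called, since Cdkn1c is then not tested. The titles name a shared experiment without saying what it shared, and the reported fit did not treat the arrays as pairs. The deviations of same-numbered arrays from their genotype means had a correlation of 0.0046 across probe sets. A value over all probe sets cannot show whether some genes shared an experiment effect. The mesothelial sums were 26611 (p57-/-) and 24992 (p57+/+) in experiment 1, against 30488 and 30499 in experiment 2. With the experiment number as a replicate block, 30 probe sets were called, 10 higher and 20 lower, and 1 member, Aldh1a7, at the same log2 change of -1.15 (adjusted p = 0.0496).

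The median log2 change of the 5 detected members, -0.38, was -0.39 after quantile normalization, -0.35 with log2(signal + 16), -0.23 over the 4 members Present on all arrays, -0.058 over all 9 without the Present filter, and -0.44 to 0.079 leaving out 1 array. Within experiments 1 and 2 it was -0.05 and -0.06. Over arrays left out, changes that turned direction ranged from -0.99 to 0.24 for Aldh1a2, -0.20 to 0.19 for Ttr, -0.018 to 0.17 for Fabp5, -0.012 to 0.091 for Tgm2, -0.95 to 0.046 for Zfp710, -0.94 to 0.23 for Rad54l, -0.92 to 0.22 for Tnfrsf13c and -0.38 to 0.26 for Upk3b; the cause was not tested. Of 390 recomputed changes of 36 named genes, 377 kept direction and side of the threshold, 4 passed newly and 9 turned. Signal near background leaves 4 members without a measured difference.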

Other observations

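The retinoid gene of largest log2 change among the 51 detected was Adh7, a retinol-oxidizing alcohol dehydrogenase gene best known from the upper digestive tract, named after its values were seen. It gave 75.3 and 47.0 in p57-/-, against 50.5 and 16.3 (Absent) in p57+/+, and the genotypes overlapped. Its log2 change was 1.06 (SE 0.66, limma adjusted p = 0.724) and ranged from 0.24 to 1.87 when 1 array was left out, and its second probe set was Absent on all 4 arrays.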
